A study of Mus musculus with 16 samples.

Results

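The genes described here encode the major histocompatibility complex (MHC) class II antigen presentation machinery of the mouse: the chains H2-Aa, H2-Ab1 and H2-Eb1, the exchange factor subunits H2-DMa and H2-DMb1, and the transactivator Ciita. They were taken by symbol from the array's gene annotation. Each had 1 probe set, so that 6 genes stand among 19572 gene-named probe sets. The invariant chain gene Cd74, the 7th on the list, was not analysed here.

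Expression was measured on Clariom S arrays in cells that were dissociated from olfactory mucosa of the S100a5-tauGFP mouse strain and sorted on GFP. In this strain GFP follows S100a5, a gene whose expression in olfactory sensory neurons depends on their activity. The 24 mice, of both sexes and 7 to 12 weeks old, were kept singly for 40 h in clean air flowing at 3.1 L/min. From 26 h they received 10 s of stimulus every 20 min, which was the ketone odorant 2-octanone for 4 pools of 3 mice and filtered air (vehicle) for 4 other pools. Each pool gave 1 array of GFP+ and 1 array of GFP− cells, which makes 4 groups of 4 arrays. All 4 groups carry the reporter and hold pooled cells of 3 mice per array. The comparison of exposures asks which genes 2-octanone moves in each fraction, and that of fractions asks which genes part reporter-positive cells from the rest.

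Values are the deposited signals, read as log2. Omp, a marker of mature olfactory sensory neurons, read 17.76 to 18.45 on all 16 arrays, so both fractions held neurons. S100a5 itself read from 13.11 to 16.98 and was higher in GFP+ cells in 8 of 8 pools, by 0.11 to 1.22. Its difference of 0.83 was called with the pool as a block (SE 0.13, limma adjusted p = 0.000487) but not without it (SE 0.60, adjusted p = 0.304). Its lowest values lay in the replicate 4 pools of both exposures, and results are therefore also given without these pools where they matter. The 23 background probe sets averaged 5.40 to 5.61 on the arrays. The median of 5222 negative control probe sets was 6.15 to 7.12.

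MHC class II molecules are heterodimers of an alpha and a beta chain that carry peptides from the endosomal pathway to the cell surface for CD4+ T cells. H2-Aa and H2-Ab1 encode the alpha and beta chains of I-A, and H2-Eb1 encodes the beta chain of I-E. H2-DMa and H2-DMb1 form H2-DM, which frees the groove for peptide in the endosome. Ciita is the transactivator of these genes. It binds no DNA itself and acts through RFX, CREB and NF-Y proteins on the X and Y boxes of their promoters. B cells, dendritic cells and macrophages are the usual class II cells, and neurons are not.

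Class II genes are known for the X and Y boxes of their promoters, so the bases before the start sites of these genes were searched for both boxes. The X core was written as CNNGNAAC and the Y core as GATTGG, letters chosen after the promoters had been read, and both strands were searched over the 250 bases before each RefSeq start (GRCm38.p6). The X core occurred in 33.3% and the Y core in 14.56% of 32851 such windows, and the motifs do not overlap in the windows below. An X core followed on the sense strand by a Y core within 50 bases occurred in 0.377%. Of the 4 members with an entry (H2-Aa, H2-Eb1, H2-DMa, H2-DMb1), 3 held that pair. H2-DMa, with 2 entries, did not hold it in either. H2-Ab1 and Ciita had no entry. The last 150 bases before the start are shown with the paired X and Y cores in capitals, for these 3 members and for the related chain genes H2-Oa, H2-Ob and H2-Eb2. The windows are chr17:34287824-34287973 on the minus strand for H2-Aa and, on the plus strand, chr17:34305717-34305866 for H2-Eb1, chr17:34153041-34153190 for H2-DMb1, chr17:34092229-34092378 for H2-Oa, chr17:34238755-34238904 for H2-Ob and chr17:34325525-34325674 for H2-Eb2.
H2-Aa: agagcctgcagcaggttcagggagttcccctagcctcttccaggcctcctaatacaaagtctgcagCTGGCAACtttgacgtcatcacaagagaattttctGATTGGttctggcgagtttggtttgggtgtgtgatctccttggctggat
H2-Eb1: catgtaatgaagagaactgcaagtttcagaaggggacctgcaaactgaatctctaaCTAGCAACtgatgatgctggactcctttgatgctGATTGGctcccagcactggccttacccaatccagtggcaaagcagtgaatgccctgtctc
H2-DMb1: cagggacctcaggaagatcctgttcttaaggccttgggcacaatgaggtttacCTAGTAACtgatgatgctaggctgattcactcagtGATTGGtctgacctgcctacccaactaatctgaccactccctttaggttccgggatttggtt
H2-Oa: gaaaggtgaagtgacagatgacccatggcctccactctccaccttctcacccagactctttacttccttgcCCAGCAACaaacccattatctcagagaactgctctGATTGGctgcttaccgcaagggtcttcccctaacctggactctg
H2-Ob: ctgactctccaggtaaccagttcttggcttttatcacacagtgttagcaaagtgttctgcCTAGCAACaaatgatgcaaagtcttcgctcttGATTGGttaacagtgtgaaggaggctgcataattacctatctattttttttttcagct
H2-Eb2: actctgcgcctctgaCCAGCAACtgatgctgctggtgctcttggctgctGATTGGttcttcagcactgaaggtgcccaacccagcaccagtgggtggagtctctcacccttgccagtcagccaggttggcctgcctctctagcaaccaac
The X core began 84 bases before the start in H2-Aa, 94 in H2-Eb1 and 97 in H2-DMb1. Between the cores lay 27, 26 and 27 bases in these 3 genes, and 27, 26 and 24 bases in H2-Oa, H2-Eb2 and H2-Ob. H2-DMb2 did not hold the pair. A match of letters is a description of the sequence and shows no binding.

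GFP+ cells held less class II RNA than GFP− cells. Over both exposures all 6 genes fell in the sort (limma, 8 pools): H2-Ab1 by 23.0-fold, H2-Aa by 19.8-fold and H2-DMb1 by 1.42-fold, with all GFP+ arrays above the median of the negative controls. H2-Eb1, H2-DMa and Ciita were above that median on 3, 6 and 2 of 8 GFP+ arrays, so their folds are given as bounds, with GFP+ values below the median raised to it. As deposited, H2-Eb1 was at least 8.97-fold lower, H2-DMa at least 2.28-fold and Ciita at least 1.13-fold. These and all later bounds hold for the deposited scaling only. With each array centred on its median Ciita differed by −0.15, with no value raised. The floor at the control median was chosen after the values were seen and is no detection call of the array. On GFP+ arrays H2-Aa lay above 64.9% to 84.6% and H2-Ab1 above 68.3% to 81.1% of the negative controls. Their folds may therefore be limited by background as well. Of all probe sets 14.0% were called lower and 16.7% higher in this comparison at an adjusted p under 0.05. With each array centred on its median, 2052 of 15141 called probe sets were lower, against 2737 of 6000 as deposited. The median difference was −2.31 on the log2 scale for the 6 genes, or −2.18 with the bounds, and 0.13 for all probe sets. In bulk samples fewer cells of a type and less RNA per cell cannot be told apart.

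**Figure D1:**
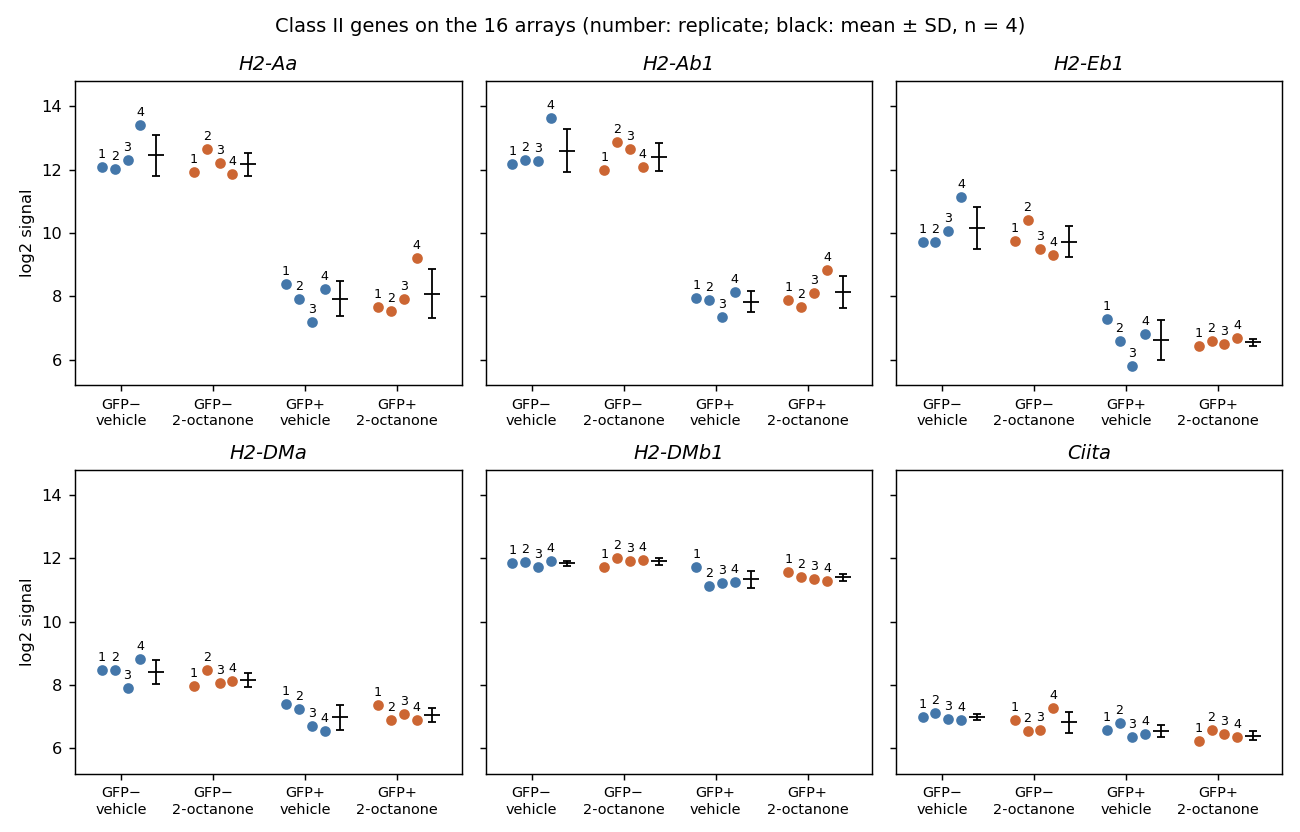
Log2 signal (y axis) of the 6 class II genes on each array, by fraction and exposure (x axis); numbers are replicates and black bars are mean ± SD of 4 arrays. H2-Aa, H2-Ab1 and H2-Eb1 fall by more than 2 log2 units from the lowest GFP− to the highest GFP+ array, whereas the fractions overlap for Ciita.

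H2-Ab1, the beta chain gene of I-A, read 12.18, 12.30, 12.29 and 13.62 in GFP− cells of vehicle replicates 1 to 4, and 11.99, 12.87, 12.65 and 12.08 after 2-octanone. In GFP+ cells it read 7.96, 7.87, 7.36 and 8.12 after vehicle and 7.87, 7.68, 8.11 and 8.84 after 2-octanone. The fractions did not overlap, and 3.15 log2 units separated the highest GFP+ from the lowest GFP− array. The difference was −4.52 (SE 0.23, limma adjusted p = 6.24e-10), the 110th most negative of all 19572 probe sets.

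H2-Aa, the alpha chain gene of the same heterodimer, read 12.09, 12.02, 12.29 and 13.41 in GFP− cells after vehicle and 11.93, 12.66, 12.22 and 11.87 after 2-octanone. In GFP+ cells it read 8.39, 7.93, 7.18 and 8.23 after vehicle and 7.65, 7.53, 7.92 and 9.22 after 2-octanone. The gap between the fractions was 2.65, and the difference was −4.30 (SE 0.27, limma adjusted p = 3.56e-09). The highest GFP− arrays of both I-A genes were vehicle replicate 4 and then octanone replicate 2.

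H2-Eb1 read 9.71, 9.72, 10.06 and 11.14 in GFP− cells after vehicle and 9.74, 10.41, 9.48 and 9.29 after 2-octanone. In GFP+ cells it read 7.28, 6.58, 5.79 and 6.81 after vehicle and 6.44, 6.58, 6.50 and 6.68 after 2-octanone. The GFP+ values lay near the negative controls, with 3 of 8 arrays above the median of these controls against 8 of 8 in GFP− cells. The fractions were 2.01 apart at their nearest and differed by −3.36 (SE 0.23, limma adjusted p = 1.16e-08).

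The H2-DM subunit genes differed less. H2-DMa read 8.48, 8.46, 7.90 and 8.81 in GFP− cells after vehicle and 7.97, 8.47, 8.06 and 8.12 after 2-octanone. In GFP+ cells it read 7.41, 7.23, 6.71 and 6.56 after vehicle and 7.37, 6.90, 7.09 and 6.90 after 2-octanone. The fractions did not overlap, and the difference was −1.26 (SE 0.15, limma adjusted p = 5.55e-06). On 6 of 8 GFP+ arrays H2-DMa was above the median of the negative controls.

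H2-DMb1 ranged from 11.73 to 12.01 in GFP− cells and from 11.12 to 11.73 in GFP+ cells, so that its fractions met within 0.0076. It stayed above at least 94.2% of the negative controls on every GFP+ array. The difference was −0.51 (SE 0.094, limma adjusted p = 0.000546). The paralogue H2-DMb2, which lies beside it, differed by −0.13 (adjusted p = 0.346); how far the probes of the 2 genes tell them apart is not known here.

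Ciita read 7.00, 7.11, 6.92 and 6.90 in GFP− cells after vehicle and 6.90, 6.56, 6.59 and 7.26 after 2-octanone. In GFP+ cells it read 6.58, 6.80, 6.35 and 6.46 after vehicle and 6.24, 6.57, 6.45 and 6.36 after 2-octanone. The fractions overlapped, and only 2 of 8 GFP+ arrays were above the median of the negative controls. The difference was −0.43 (SE 0.11, limma adjusted p = 0.00713). It was not called with each array centred on its median (−0.15, adjusted p = 0.210) or after quantile normalisation (−0.22, adjusted p = 0.116). The other 5 genes were lower and called under both. Centring raised the difference of every gene by the same amount, which left H2-DMb1 at −0.23 (limma adjusted p = 0.0435).

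Within pools, where both fractions came from the same mice, H2-Aa, H2-Ab1, H2-Eb1, H2-DMa and H2-DMb1 were lower in GFP+ cells in 8 of 8 pools and Ciita in 7 of 8. The exception was octanone replicate 2, at 0.018 for Ciita. The pool differences of H2-Ab1 ran from −5.50 to −3.24 and those of H2-Aa from −5.18 to −2.65. Those of H2-Eb1 ran from −4.33 to −2.43, so that the ranges of the 3 surface chain genes overlap. The range of H2-DMa, from −2.25 to −0.60, lay clear of them. H2-DMb1 ran from −0.78 to −0.11 and Ciita from −0.91 to 0.018, and these neighbours did not differ beyond their spread. Of the 6 genes, 5 had all GFP+ arrays below all GFP− arrays, which held for 8.25% of all probe sets.

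**Figure D2:**
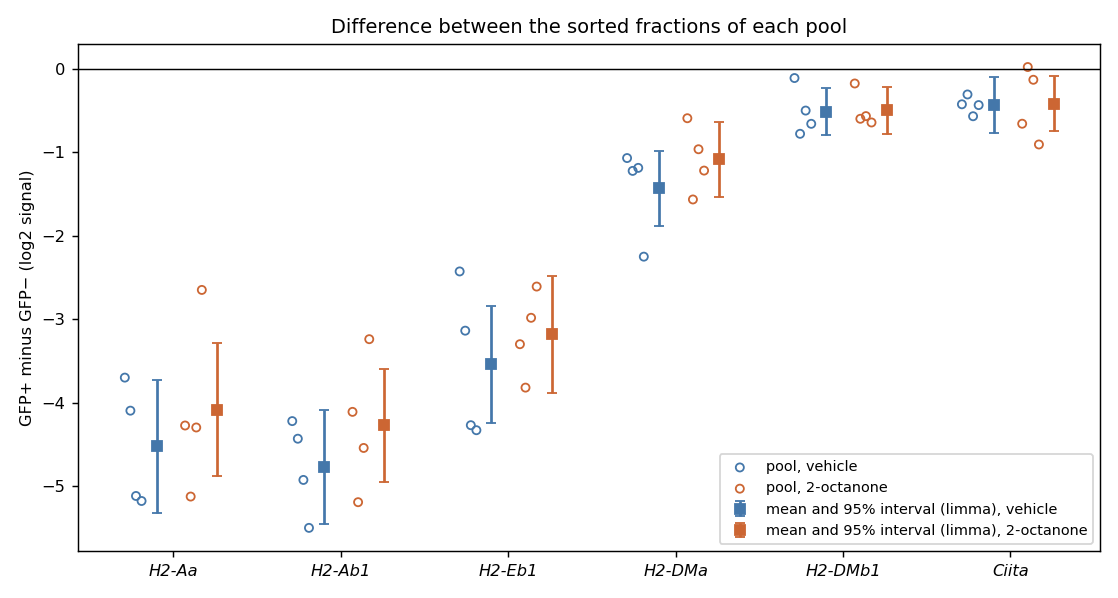
GFP+ minus GFP− difference in log2 signal (y axis) of the 6 class II genes (x axis). Circles are single pools. Squares with bars are the mean of the 4 pools of an exposure and its 95% interval from limma without the pool as a block. The surface chain genes lie between −5.50 and −2.43, well below H2-DMb1 and Ciita.

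The sort difference was also tested in each exposure. After vehicle 5 of 6 genes fell in GFP+ cells, where 11.0% of all probe sets did. The differences were −4.77 (SE 0.32) for H2-Ab1, −4.52 (SE 0.38) for H2-Aa, −3.54 (SE 0.33) for H2-Eb1, −1.43 (SE 0.21) for H2-DMa and −0.52 (SE 0.13) for H2-DMb1. After 2-octanone these 5 genes also fell, against 9.80% of all probe sets, with differences of −4.27, −4.09, −3.18, −1.09 and −0.50 in that order. Ciita stood at −0.44 after vehicle (limma adjusted p = 0.0621) and −0.42 after 2-octanone (adjusted p = 0.0829), and was called in both with the pool as a random block (adjusted p = 0.0348 and 0.0469) but not with the pool as a fixed block (0.0717 and 0.0867). Ciita was also called after vehicle without octanone replicate 4 (−0.44, limma adjusted p = 0.0319) and with array weights (−0.45, 0.0279). The H2-DMb1 call after vehicle was lost without vehicle replicate 2 (−0.43, adjusted p = 0.0875) or 4 (−0.47, 0.0710), and that after 2-octanone without octanone replicate 2 (−0.46, 0.0946), 3 (−0.48, 0.0842) or 4 (−0.45, 0.0867). Both were lost without the replicate 4 pools (adjusted p = 0.0715 and 0.0784) and with each array centred on its median (−0.22, adjusted p = 0.180, and −0.24, 0.144). With only the arrays compared in the fit the call after vehicle was lost as well (adjusted p = 0.0504).

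2-octanone moved none of the 6 genes past the threshold in either fraction. In GFP+ cells 0 of 6 were called by limma and 0 had an unadjusted p under 0.05. Over all probe sets limma called 0% here, and 3.16% had an unadjusted p under 0.05. The differences, as 2-octanone minus vehicle, were 0.29 for H2-Ab1 (95% interval −0.38 to 0.97), 0.15 for H2-Aa (−0.65 to 0.94), −0.065 for H2-Eb1 (−0.76 to 0.64), 0.089 for H2-DMa (−0.36 to 0.54), 0.072 for H2-DMb1 (−0.21 to 0.35) and −0.14 for Ciita (−0.47 to 0.19). The arrays of the 2 exposures overlapped for all 6 genes.

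In GFP− cells 0 of 6 genes were called by limma and 0 had an unadjusted p under 0.05, against 0.00511% and 2.44% of all probe sets. The differences were −0.43 for H2-Eb1 (95% interval −1.13 to 0.27), −0.29 for H2-Aa (−1.08 to 0.51), −0.26 for H2-DMa (−0.71 to 0.19), −0.20 for H2-Ab1 (−0.88 to 0.47), −0.16 for Ciita (−0.48 to 0.17) and 0.056 for H2-DMb1 (−0.23 to 0.34). The exposures overlapped for all 6 genes. Without both replicate 4 pools the differences were 0.046 for H2-Eb1, 0.13 for H2-Aa and 0.24 for H2-Ab1, none of them called.

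The GFP+ minus GFP− difference changed with 2-octanone by 0.50 for H2-Ab1 (95% interval −0.46 to 1.46), 0.44 for H2-Aa (−0.69 to 1.56), 0.36 for H2-Eb1 (−0.63 to 1.35) and 0.35 for H2-DMa (−0.29 to 0.99). H2-DMb1 (0.016) and Ciita (0.015) changed least. Limma called 0 of 6, and 0 had an unadjusted p under 0.05, against 0% and 2.38% of all probe sets. This comparison shares its arrays with the previous ones.

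**Figure D3:**
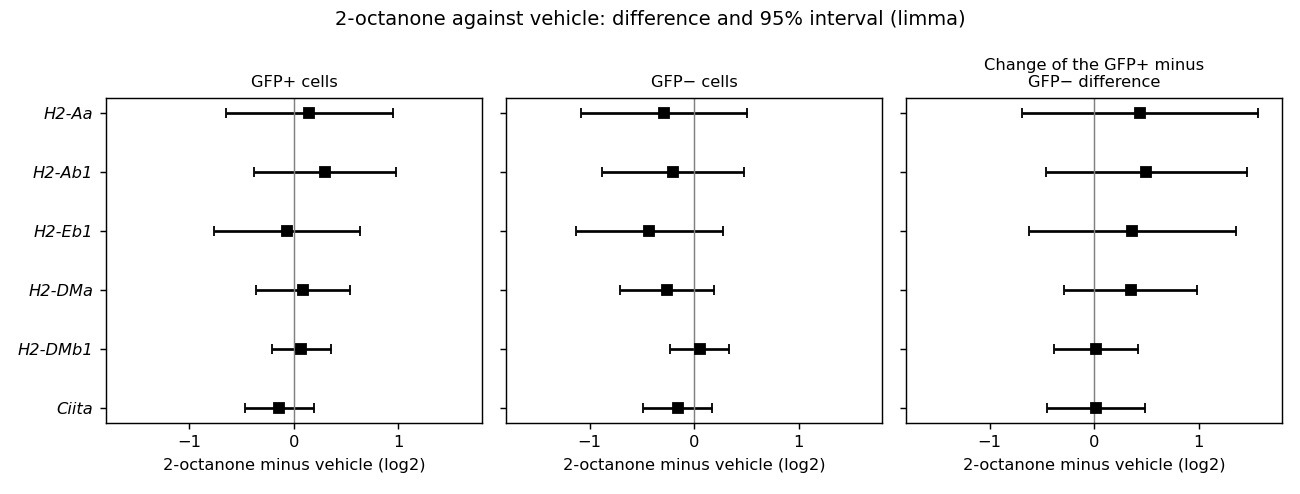
Difference between 2-octanone and vehicle in log2 signal (x axis) for the 6 class II genes (y axis), in GFP+ cells, in GFP− cells and for the GFP+ minus GFP− difference. Squares are estimates and bars 95% intervals from limma, with 4 pools per exposure; every interval includes 0.

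Single arrays stood apart for the I-A genes. In GFP+ cells octanone replicate 4 was the highest array for H2-Aa (9.22) and H2-Ab1 (8.84) but not for H2-Eb1 (6.68). The mean log2 signal of 10 neutrophil marker genes was 12.37 on that array and 6.91 to 9.81 on the other GFP+ arrays. The mean of 4 monocyte markers was 10.31 there. The mean of 7 B cell markers was 5.38, within the 5.19 to 5.48 of the GFP+ arrays. That of 10 dendritic cell markers was 5.52, at the top of their 5.35 to 5.52. Both lay below the 6.94 median of the negative controls on that array, so they say little about such cells. The T cell (6.35) and microvillar (6.58) means, also below it, were the highest of the GFP+ arrays. So were those of class I (9.46) and antigen processing genes (10.77). The macrophage mean (7.29) was not, and that of mature neuron markers (15.93) was the lowest. The part of these differences in the H2-Aa and H2-Ab1 values was not tested.

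In GFP− cells vehicle replicate 4 was the highest array for H2-Aa, H2-Ab1, H2-Eb1 and H2-DMa. It was also the highest for the B cell markers, with a mean of 8.06 against 6.45 to 7.501 on the other GFP− arrays, for the macrophage markers, with 8.83 against 7.75 to 8.18, and for the dendritic cell markers, with 6.47 against 5.999 to 6.33. The dendritic cell mean lay below the 6.58 median of the negative controls on this array. Of the other lists vehicle replicate 4 was the highest GFP− array for monocyte (13.97), T cell (6.73), microvillar (8.595) and Bowman's gland markers (11.24). It was so too for class I (11.24), antigen processing (12.41), costimulation (8.002) and other class II chain genes (8.92). For neutrophil, sustentacular and horizontal basal cell markers and class II regulators it lay between the other arrays. It was the lowest for the mature neuron markers, with a mean of 15.42 against 15.64 to 15.89 on the others. The part of these differences in the class II values was not tested. In GFP+ cells vehicle replicate 3 was the lowest array for all 3 surface chain genes.

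**Figure D4:**
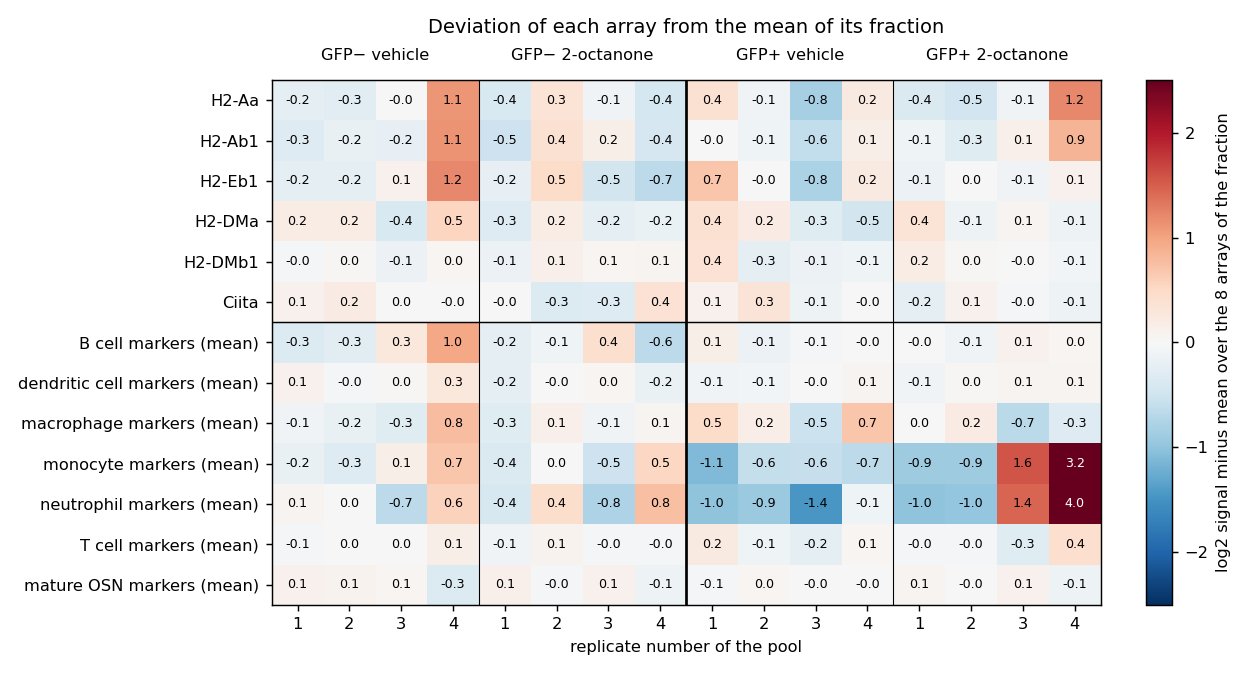
Log2 signal of each class II gene, and mean log2 signal of each marker list (OSN: olfactory sensory neuron), on each of the 16 arrays (columns) as its deviation from the mean of the 8 arrays of its fraction; the colour scale ends at 2.5 in each direction. The class II surface chain genes stand out on vehicle replicate 4 in GFP− cells, and H2-Aa and H2-Ab1 on octanone replicate 4 in GFP+ cells.

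Other class II chains were divided. H2-Ob and H2-Oa, the subunits of H2-O, which restrains H2-DM chiefly in B cells, fell in GFP+ cells (limma adjusted p = 2.12e-05 and 1.16e-05). Neither was above the median of the negative controls on any GFP+ array. Against that median H2-Ob was at least 2.75-fold and H2-Oa at least 1.31-fold lower. H2-Eb2 (−0.091, limma adjusted p = 0.652) was not above that median on any array of either fraction. With H2-DMb2, 2 of 4 such genes were lower and 0 higher, against 14.0% and 16.7% of all probe sets.

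Of 12 regulators of class II genes 2 fell and 0 rose, with a median difference of −0.075. This share is near the 14.0% of all probe sets called lower. These were Ifngr1, the ligand-binding subunit of the interferon gamma receptor (−1.59, SE 0.18), and Irf1, an interferon-induced transcription factor (−1.24, SE 0.23). Ifngr2 (−0.30, limma adjusted p = 0.0539) and Nfya (−0.26, adjusted p = 0.0885) were not called. The 7 genes of RFX, NF-Y and CREB proteins, singled out after their values were seen, lay between −0.26 and 0.14, with 0 called. With each array centred on its median 2 regulators were lower and 4 higher, with a median of 0.20, where 10.5% of all probe sets were lower and 66.9% higher.

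Of 11 genes of antigen processing and of receptors that act with the invariant chain, 7 fell and 1 rose. Of all probe sets 14.0% fell and 16.7% rose. Ifi30, the lysosomal thiol reductase GILT, fell by 4.15 (SE 0.25, limma adjusted p = 3.22e-09). Cxcr4 (−4.36) and Cd44 (−4.48), both partners of the invariant chain at the cell surface, fell with it, as did Marchf1 (−2.21), a ubiquitin ligase that removes class II molecules from the surface. On GFP+ arrays Cxcr4, Cd44 and Marchf1 were above the median of the negative controls on 7, 5 and 2 of 8. Ctss, the protease that trims the invariant chain, differed by −2.12 (SE 0.31, adjusted p = 5.07e-05), and Lgmn, the endosomal protease legumain, was the 1 that rose (0.27, SE 0.099, adjusted p = 0.0486); both are named after their values were seen. The list median was −0.67, and with each array centred on its median 6 of these genes were lower and 3 higher.

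Of 6 costimulation genes 3 fell and 0 rose, against 14.0% and 16.7% of all probe sets. The 3 were Icosl (−2.41, SE 0.21), Cd80 and Cd86. Cd80 and Cd86 were above the median of the negative controls on 0 of 8 GFP+ arrays. Against that median Cd80 was at least 1.29-fold lower, and Cd86, above it on 3 of 8 GFP− arrays, gave no bound. Cd86 was not called with each array centred on its median (−0.13, limma adjusted p = 0.412) or after quantile normalisation (−0.28, 0.116). Cd274, the gene of the inhibitory ligand PD-L1, stood at 0.54 (limma adjusted p = 0.0907). It was called higher after centring (0.82, limma adjusted p = 0.00496), as were 66.9% of all probe sets.

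Class I presentation genes were lower as well. Of 9 measured, 7 fell and 0 rose, against 14.0% and 16.7% of all probe sets, with a median of −1.50. H2-D1 (−3.40, SE 0.27) and H2-K1 (−3.11, SE 0.28) encode class I heavy chains, B2m (−3.30, SE 0.23) their light chain, and Psmb8 (−1.99, SE 0.20) an immunoproteasome subunit. H2-D1 and Psmb8 were above the median of the negative controls on 2 of 8 GFP+ arrays each, and against that median were at least 8.37-fold and 3.499-fold lower. H2-K1 and B2m were above it on all. With each array centred on its median 6 were lower and 2 higher, against 10.5% and 66.9% of all probe sets.

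**Figure D5:**
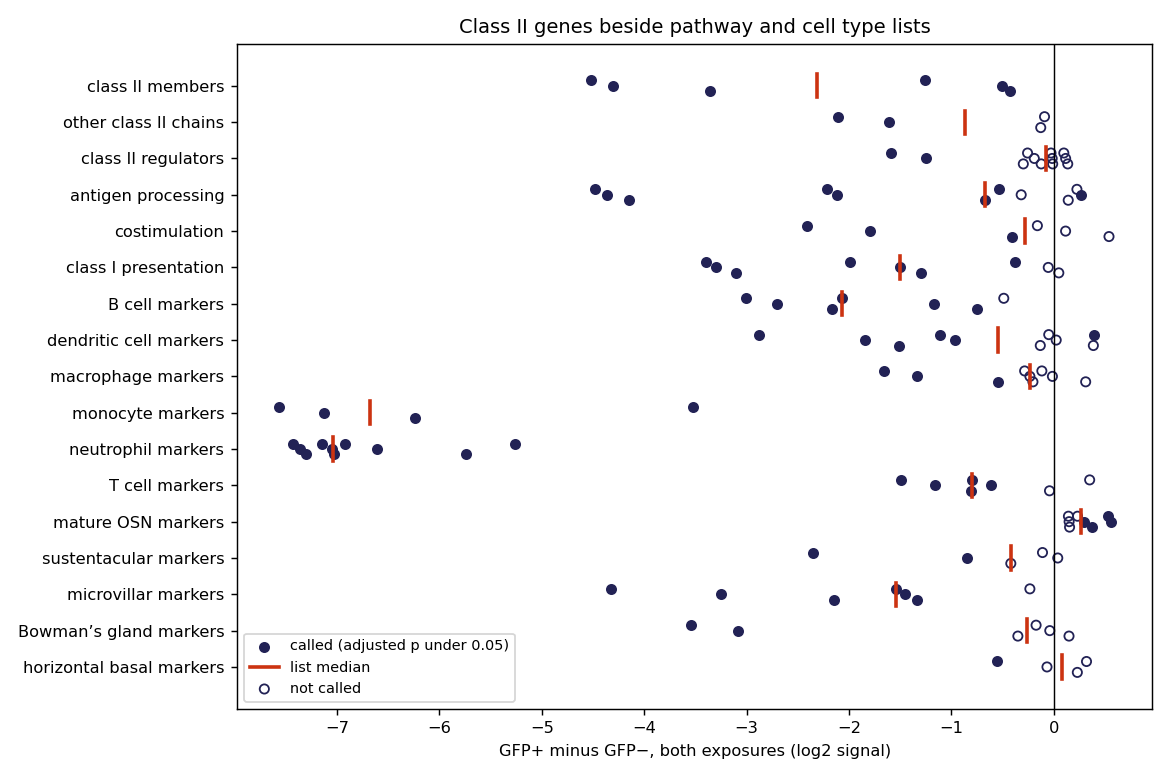
GFP+ minus GFP− difference over both exposures in log2 signal (x axis) of each gene of the pathway and marker lists (y axis; OSN: olfactory sensory neuron). Filled points were called by limma at an adjusted p under 0.05, open points were not, and red bars are list medians. The class II genes fall into 3 surface chain genes between −4.52 and −3.36 and 3 others between −1.26 and −0.43, so that none lies near their median of −2.31.

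Markers of the cells that commonly carry class II molecules were set beside the class II genes. Their lists differ in how many genes read near the negative controls, so the list medians do not rank the cell types. Of 7 B cell markers 6 fell and 0 rose, against 14.0% and 16.7% of all probe sets. Those that fell included Cd79a and Cd79b of the B cell receptor, Ms4a1 and Fcrla. The list median was −2.07. The mean level of the list was 5.19 to 5.48 on the GFP+ and 6.45 to 8.06 on the GFP− arrays. On GFP+ arrays Cd79b, Ms4a1 and Fcrla were above the median of the negative controls on 0 of 8, and Cd79a on 2 of 8. Against that median Cd79a was at least 6.56-fold, Cd79b at least 3.22-fold and Ms4a1 at least 1.49-fold lower. Fcrla, Cd22 and Pax5, above it on 2, 1 and 2 of 8 GFP− arrays and on 0 of 8 GFP+ arrays, gave no bound. Blk, above it on 5 of 8 GFP− and 0 of 8 GFP+ arrays, was at least 1.08-fold lower as deposited.

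Of 10 dendritic cell markers 5 fell and 1 rose, against 14.0% and 16.7% of all probe sets, with a median of −0.55. Cd209a, a lectin of monocyte-derived dendritic cells, fell, as did the growth factor receptor gene Flt3, the integrin gene Itgax and Siglech, a marker of plasmacytoid cells (−0.96, SE 0.12). Zbtb46, a transcription factor gene of classical dendritic cells, rose (0.39, SE 0.11) and is named after its value was seen. Flt3, Itgax, Xcr1 and Clec9a were not above the median of the negative controls on any array of either fraction, so no size is given for them. Batf3 was above it on 0 of 8 GFP− and 1 of 8 GFP+ arrays. Cd209a was above it on 8 of 8 GFP− and 0 of 8 GFP+ arrays, and was at least 2.37-fold lower against it. The mean level of the list was 5.35 to 5.52 on GFP+ and 5.999 to 6.47 on GFP− arrays. With each array centred on its median 5 were lower and 2 higher, against 10.5% and 66.9% of all probe sets.

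Of 9 macrophage markers 3 fell and 0 rose, against 14.0% and 16.7% of all probe sets, with a median of −0.23. The 3 were Csf1r (−1.66, SE 0.27), the receptor of the macrophage growth factor, Cx3cr1 (−1.34, SE 0.26) and Adgre1 (−0.54). Cx3cr1 was above the median of the negative controls on 1 of 8 GFP+ arrays and was at least 1.19-fold lower against it as deposited. Mertk, not above it on any array, stood at 0.31 (limma adjusted p = 0.0801). The complement genes C1qa (−0.12, adjusted p = 0.784), C1qb (−0.28, 0.440) and C1qc (−0.013, 0.968), named after their values were seen, were not called and read above the median of the negative controls on all 16 arrays. The list's mean level overlapped between the fractions, at 6.92 to 8.30 on GFP+ and 7.75 to 8.83 on GFP− arrays. With each array centred on its median 2 macrophage markers were lower and 1 higher, against 10.5% and 66.9% of all probe sets.

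The other lists gave the setting of these values. All 10 neutrophil and all 4 monocyte markers fell, with medians of −7.04 and −6.68, and 5 of 7 T cell markers did, with a median of −0.80. Of 7 microvillar cell markers 6 fell (median −1.54), of 5 sustentacular markers 2 (−0.42), of 6 Bowman's gland markers 2 (−0.26) and of 4 horizontal basal cell markers 1 (0.082). That basal cell gene, Icam1, was above the median of the negative controls on 1 of 8 GFP− and 0 of 8 GFP+ arrays. Chat of the microvillar and Cd3g of the T cell list were called lower though not above it on any array. After centring, 0 horizontal basal cell markers were lower and 2 higher, and Bowman's gland and T cell markers had 1 higher each. Of 8 mature neuron markers 4 rose and 0 fell (median 0.26), and all 8 were called higher with each array centred on its median. Over all probe sets 14.0% fell and 16.7% rose as deposited, and 10.5% were lower and 66.9% higher after centring. For 2-octanone against vehicle, limma called 0 of the 119 genes on these 16 lists in either fraction.

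Likeness between profiles was measured as the root mean square distance of log2 signals, each gene taken minus its own mean. Over the 16 arrays, where the sort sets most of the distance, the nearest gene to H2-Aa was Ifi30, at 0.294. Next to it were Myb (0.351), a transcription factor of blood cell precursors, and Sla (0.363), an adaptor of lymphocyte receptor signalling. Vim (0.343), an intermediate filament gene, was nearest to H2-Ab1, followed by Myb (0.346) and Ifi30 (0.356). Tagln2 (0.356) was nearest to H2-Eb1, followed by Spib (0.367), an Ets factor of B and plasmacytoid dendritic cells, and B2m (0.374).

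H2-DMa lay nearest to Psme1 (0.181), a proteasome activator subunit, H2-DMb1 to the ribosomal protein gene Rpl29 (0.131) and Ciita to the carboxypeptidase gene Cpd (0.134). Over the 8 GFP− arrays alone, which leave out the sort, H2-Aa lay nearest to the B cell gene Cd22 (0.145), which was above the median of the negative controls on 1 of these arrays. Almost as near were Stmn1 (0.155), a microtubule regulator, and Stil (0.156), a centriole assembly gene, both known from dividing cells. H2-Ab1 lay nearest to the histone gene H2bc8 (0.148) and then to Stmn1 (0.154). H2-Eb1 lay nearest to Calcrl (0.192) and then to the interleukin 7 receptor gene Il7r (0.193). Vehicle replicate 4 deviated most from the GFP− mean, by 1.102 for H2-Aa, 1.125 for H2-Ab1 and 1.198 for H2-Eb1. Near profiles of these genes had to share that high value, and likeness without this array was not tested. Distances are small where a gene varies little, as for H2-DMb1, whose nearest gene over those arrays was Ilkap at 0.0347.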

How the data were processed

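The authors' deposited values, 1 column per array, run from 2.13 to 18.99 over 28846 probe sets and were read as log2 signals from that range. Per the submitters' processing notes the software was Affymetrix Expression Console; its version, algorithm and the log base are not given in the sources used here. Per the labels' protocols, 50 to 100 ng of total RNA was made into biotinylated cRNA.

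One limma model (version 3.58.1, R 4.3.3) with a mean for each of the 4 groups was fitted over the 19572 probe sets with a gene name, leaving 12 residual and 4.19 prior degrees of freedom. Tests were two-sided, p was adjusted over all probe sets by Benjamini-Hochberg, and a gene was called at an adjusted p under 0.05. This model had no block. The fractions are paired by pool, since they share their mice; across genes their deviations from group means correlated at −0.0049 to 0.461 for the same pool. Pools of the 2 exposures with the same number correlated at 0.175 to 0.435 in GFP+ cells, above the −0.284 to 0.0891 of unlike numbers, and at −0.062 to 0.517 in GFP− cells, against −0.557 to 0.338. The labels name nothing that a number shares, and whether the numbers pair all pools was not settled; the number entered as a block in an alternative. The fit was tested on simulated data with independent arrays, so that test does not bear on the pairing.

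The members and the 16 gene lists were chosen with earlier results of these data known. The naming rule took all members, up to 4 genes with the smallest p from each list, and the 3 nearest profiles of each member; not all are named. Alternatives covered scaling, filtering, variance priors, array weights, left-out pools and blocks. Precision is limited by the 4 arrays per group.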

Additional observations from a re-analysis of the deposited data

Results flagged for a closer look

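Of 24 sets of 4 arrays (6 genes in 4 groups), 1 held an array far from the others, where chance gives about 1 in 20. H2-Ab1 read 13.62 in GFP− cells of vehicle replicate 4, against 12.18 to 12.30 in the other vehicle pools, and this gap was 0.915 of the range of the group.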

How the results depend on the processing

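The counts of called genes stayed between 4 and 6 in the sort comparisons and at 0 for 2-octanone in every alternative run. The 4 of the filter on low values is 4 of 4 genes, since H2-DMa and Ciita were filtered out. With the pool as a fixed replicate block 6 genes were called in the sort, or 5 in either exposure alone. With the replicate number as the block 0 were called for 2-octanone in either fraction. Neither block changed a call of these genes. Centring moved the median sort difference of all probe sets from 0.13 to 0.41 and the calls from 6000 (2737 lower) to 15141 (2052 lower). The array medians were 7.64 to 7.73 in GFP+ and 7.92 to 8.01 in GFP− cells, so centring raised every sort difference by the same amount. Why the medians differed was not tested. In the alternatives only uncalled differences of these genes changed sign, and the cause was not tested. With a pool left out, the difference in GFP+ cells ran from −0.23 to 0.33 for H2-Aa, −0.34 to 0.16 for H2-Eb1, −0.051 to 0.23 for H2-DMa and −0.00076 to 0.20 for H2-DMb1, and in GFP− cells from −0.45 to 0.032 for H2-Aa and −0.36 to 0.14 for H2-Ab1. The change of the sort difference ran from −0.042 to 0.78 for H2-Aa, −0.091 to 0.15 for H2-DMb1 and −0.13 to 0.18 for Ciita. Without both replicate 4 pools it was −0.26 for H2-Aa, −0.089 for H2-Ab1 and −0.089 for H2-Eb1, and the difference was −0.13 for H2-Aa in GFP+ cells and 0.13, 0.24 and 0.046 for H2-Aa, H2-Ab1 and H2-Eb1 in GFP− cells. For Ciita the change was −0.048 after quantile normalisation and −0.028 after centring, and for H2-DMb1 −0.027 after centring. Array weights gave 0.092 for H2-Ab1 in GFP− cells. No member has more than 1 probe set, so the alternative of another probe set was not run.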
